A study of Mus musculus with 6 samples.

Results

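The miR-181 family was followed in small RNA sequencing of mouse fat through the rows named miR-181a, miR-181b, miR-181c and miR-181d, each arm that the table lists included. There were 8 such rows among the 1983 of the table, and the 6 that lay above the floor of the deposited values in at least 3 of the 6 libraries are described. The other 2, miR-181a-2-3p and miR-181b-3p, were at the floor in all 6 libraries. The study asked which miRNAs differ in fat when the renin-angiotensin system is overactive in that tissue. It sequenced epididymal white adipose tissue (WAT) from male mice, with 3 wild type (Wt) libraries and 3 libraries from mice carrying an angiotensinogen transgene (Agt Tg).

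Angiotensinogen is the protein from which angiotensin II is cut. In the Agt Tg mice its gene was driven in adipose tissue by the aP2 promoter, which is used by fat cells but is not strictly confined to them, and the Wt mice did not carry it. The strain is given as C57BL6/J for both groups. Both groups ate the same food, named a chow diet in the labels and a low fat diet in the methods of the study, while age is not given in the sources used here. As the whole fat depot was sequenced, fewer cells of a type and less RNA per cell cannot be told apart in any value below.

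A miRNA gene is transcribed into a hairpin whose 5p and 3p arms are cut out as short RNAs, and usually one arm is kept in far larger amounts. The seed near the 5′ end does most of the pairing with target mRNAs, so miRNAs with one seed are grouped in a family. miR-181 is best known from lymphocytes, where miR-181a sets how sensitive developing T cells are to antigen; miR-181b is known for restraining NF-κB signalling in endothelial cells, and miR-181 in white fat cells has been linked to insulin sensitivity in obesity.

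The mature sequences, taken from RefSeq (GRCm38.p6), show what the rows share and how little separates some of them. Capitals mark the seed, bases 2 to 8 from the 5′ end. All 6 described rows had an entry, matched by name, with miR-181d, listed without an arm, taken as its 5p arm and miR-181a-3p as the 3p arm of Mir181a-1. The last sequence belongs to a row at the floor and is shown for comparison with miR-181a-3p.
miR-181a-5p: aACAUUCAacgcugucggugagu
miR-181b-5p: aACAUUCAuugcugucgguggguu
miR-181c-5p: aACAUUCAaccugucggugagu
miR-181d-5p: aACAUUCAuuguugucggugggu
miR-181a-1-3p: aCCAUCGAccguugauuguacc
miR-181c-3p: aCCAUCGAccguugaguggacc
miR-181a-2-3p: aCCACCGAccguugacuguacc

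The 4 guide strands, all 5p, have one seed, and no other name among the 1679 mature mouse miRNAs in that table has it. miR-181a-5p and miR-181c-5p are 1 edit apart, the loss of a base. miR-181b-5p differs from miR-181d-5p by C12U, with positions counted from 1 at the 5′ end and the base of miR-181b-5p first, and by 1 base of length. The 3p arms of Mir181a-1 and Mir181c share a seed of their own and differ by U16G and U19G. Against the 3p arm of Mir181a-1, that of Mir181a-2 differs by U5C, inside the seed, and by U16C. The table uses human names, and human mature sequences were not used here, so a row at the floor is no measure of a mouse strand that may differ from the human one. How many mismatches the mapping allowed is not given in the sources used here, and reads of near-identical members may have been shared between their rows.

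The family comes from 6 genes in 3 pairs. Mir181a-1 (chr1:137966455-137966541) and Mir181b-1 (chr1:137966639-137966718) lie on the plus strand of GRCm38, 97 bases apart, where they overlap an exon of the long non-coding RNA A430106G13Rik and an intron of the transcript Gm4258 on the same strand. Mir181a-2 (chr2:38852735-38852810) and Mir181b-2 (chr2:38853830-38853918) lie 1019 bases apart on the plus strand, opposite introns of Nr6a1, a gene for an orphan nuclear receptor. Mir181d (chr8:84178716-84178787) and Mir181c (chr8:84178873-84178961) lie 85 bases apart on the minus strand, inside a Nanos3 intron, Nanos3 being a germ cell gene transcribed in the same direction. miR-181a-5p and miR-181b-5p each have 2 genes with the same mature sequence, so their rows do not say which pair the reads came from, whereas miR-181c-5p and miR-181d each come from 1 gene.

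One library stood apart before any comparison of genotypes. In Wt 2, 23 of the 329 rows tested were more than 1 log2 unit above every other library. These 23 included 3 miR-181 rows, which were miR-181c-5p, miR-181d and miR-181c-3p, and all 7 tested miRNAs of a marker list for epididymis, testis and epithelium. That list was chosen with earlier results of these data known, so the overlap is no independent check. The other libraries had 0 to 4 rows that far above the rest, and no miR-181 row among them. All 11 miRNAs of that marker list were in the table, with miR-34c-5p the most abundant, and miR-34b-5p, miR-34c-3p and miR-429 were at the floor in all 6 libraries. In this and every list below the rows have human names, so a row at the floor is no measure of a mouse strand that may differ. The summed level of the list was 138308 reads per 10000000 in Wt 2, against 1726 in Wt 1, 1110 in Wt 3, 1662 in Agt Tg 1, 1036 in Agt Tg 2 and 1464 in Agt Tg 3. The part of other tissue in the miR-181 values of Wt 2 was not tested, and the fold changes of the miR-181 rows, their ratios and the family total are given below with and without that library.

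The deposited values are on a log2 scale, with reads expressed per 10000000 of each library and anything under 10 raised to 10, the floor. miR-181a-5p, the member known from T cells, was the ninth most abundant of the 329 rows tested by mean level. Its log2 values were 17.49, 16.88 and 17.54 in Wt 1, 2 and 3, and 16.85, 16.87 and 17.00 in Agt Tg 1, 2 and 3. Wt 1 and Wt 3 were above the other 4 libraries, and Wt 2 lay among the Agt Tg libraries. These levels stood for 76282 to 186846 reads.

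miR-181b-5p, which is made beside miR-181a-5p from both of its loci, was far less abundant. Its log2 values were 13.07, 12.83 and 12.81 in Wt, and 12.65, 12.39 and 12.60 in Agt Tg. Here the groups did not overlap, and the Agt Tg libraries were lower. Of all 329 rows tested, 35 (10.6%) had all 3 Agt Tg libraries below all 3 Wt libraries, and 1 of the 6 miR-181 rows did. Against that background, 1 row of 6 says nothing particular about the family.

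miR-181c-5p and miR-181d, from the locus inside Nanos3, followed another pattern. The log2 values of miR-181c-5p were 12.34, 13.85 and 12.15 in Wt, and 12.30, 11.75 and 11.81 in Agt Tg. Those of miR-181d were 9.42, 11.02 and 9.21 in Wt, and 9.61, 9.04 and 8.93 in Agt Tg. In both rows Wt 2 was the highest library, by at least 1.41 log2 units over the next library, and the genotypes overlapped.

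The 3p arms were each less abundant than the 5p arm of the same miRNA. miR-181a-3p had log2 values of 10.66, 9.94 and 10.52 in Wt and of 10.41, 10.01 and 9.88 in Agt Tg, again with Wt 2 at the level of the Agt Tg libraries. miR-181c-3p had values of 7.45, 9.11 and 7.03 in Wt and of 7.12, 6.62 and 5.97 in Agt Tg, with Wt 2 highest by 1.66 log2 units. miR-181c-3p is the thinnest measurement of the 6, resting on 63 to 433 reads a library.

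**Figure D1:**
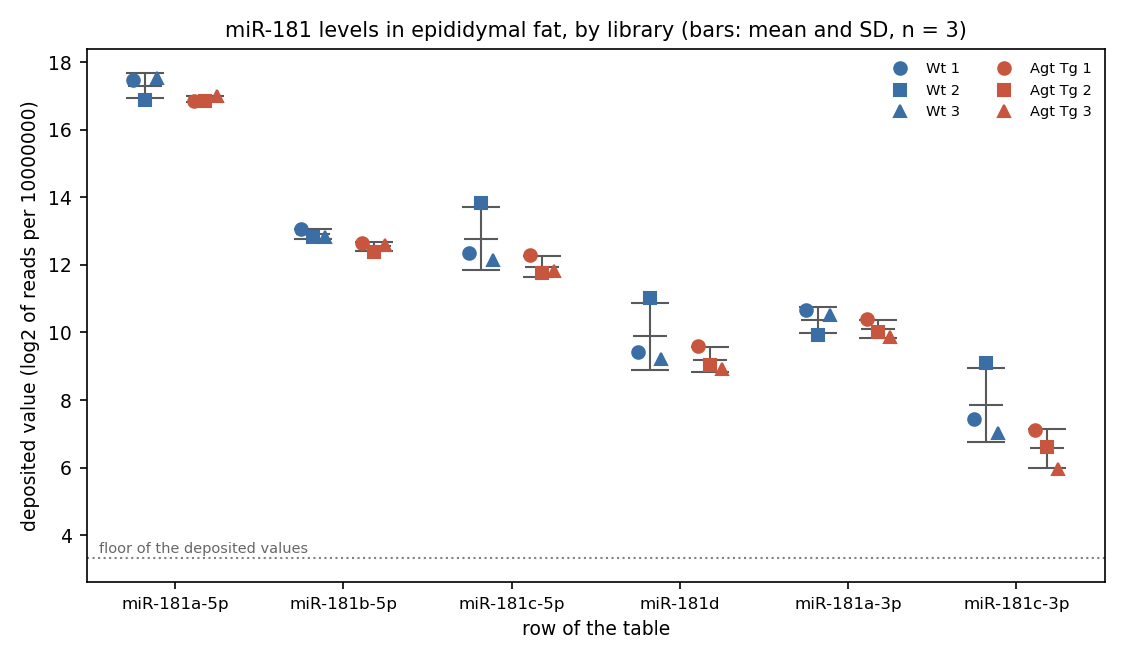
Deposited log2 values of the 6 described miR-181 rows (vertical axis) in each library, with Wt in blue, Agt Tg in red and replicates 1, 2 and 3 as circles, squares and triangles; bars give the mean and SD of 3 libraries and the dotted line the floor. Wt 2 is the highest library in miR-181c-5p (13.85), miR-181d (11.02) and miR-181c-3p (9.11), and lies with the Agt Tg libraries in miR-181a-5p (16.88) and miR-181a-3p (9.94).

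By mean level the order was miR-181a-5p, miR-181b-5p, miR-181c-5p, miR-181a-3p, miR-181d and miR-181c-3p. It held in all 6 libraries for miR-181a-5p over miR-181b-5p, by 4.05 to 4.72 log2 units. miR-181b-5p exceeded miR-181c-5p, and miR-181a-3p exceeded miR-181d, in 5 of 6 libraries, with Wt 2 as the exception to both. In the whole table miR-181a-5p (mean log2 17.10) stood between let-7f-5p (17.11) and miR-191-5p (17.04), the latter used as a reference miRNA in the RT-qPCR of the study. miR-181b-5p stood between miR-30a-3p and miR-23b-3p, miR-181c-5p between miR-222-3p and miR-497-5p, and miR-181d between miR-1249 and miR-132-3p. Each of these gaps was at most 0.18 log2 units, smaller than the SD over libraries of the difference between the neighbours, which was 0.29 or more, and no neighbour was on the same side of its miR-181 row in all 6 libraries.

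The comparison of genotypes asked whether miR-181 levels differed between Agt Tg and Wt fat, and all 6 rows had a lower mean in Agt Tg without passing the test. The log2 fold changes, Agt Tg minus Wt with the SE of limma and n = 3 and 3 libraries, were −0.40 ± 0.21 for miR-181a-5p and −0.36 ± 0.18 for miR-181b-5p. They were −0.83 ± 0.45 for miR-181c-5p and −0.69 ± 0.50 for miR-181d. For the 3p arms they were −0.27 ± 0.28 for miR-181a-3p and −1.29 ± 0.59 for miR-181c-3p. The p-values of limma, adjusted over the 329 rows by the Benjamini-Hochberg method, lay between 0.531 and 0.691 for the 6 rows. All 6 of the 95% intervals included 0, the widest being that of miR-181c-3p, from −2.68 to 0.09.

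Of the miR-181 rows, 0 of 6 reached an unadjusted p of at most 0.05 with a log2 fold change of 1 or more in size, against 16 of 329 rows (4.86%), 9 higher and 7 lower in Agt Tg. Without the fold threshold it was again 0 of 6, against 30 of 329 (9.12%). At an adjusted p under 0.05 limma called 0 of 329 rows (0%), and limma-voom, which called 14 rows by p and fold, also gave 0. The count for the miR-181 rows became 2 without Wt 3, namely miR-181c-5p (−1.14) and miR-181c-3p (−1.71), against 22 of 329 rows (6.69%) in the same fit. Without Agt Tg 1 the count was 0 of 6, against 35 of 329 rows (10.6%), and without Wt 2 also 0 of 6, against 23 of 329 (6.99%). With the replicate number as a block it was 1 of 6, against 17 of 329 rows. That row was miR-181c-3p (−1.29, unadjusted p of 0.0388 in limma).

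The lower means have to be read against a shift of the whole table. The median log2 fold change of the 329 rows was −0.19, and 67.5% of them had a lower mean in Agt Tg. The median became −0.06 when the libraries were scaled with TMM, by which the calls split into 10 higher and 5 lower. With that scaling the log2 fold changes were −0.27 for miR-181a-5p, −0.23 for miR-181b-5p, −0.70 for miR-181c-5p, −0.56 for miR-181d, −0.15 for miR-181a-3p and −1.17 for miR-181c-3p, each smaller in size than without it. Relative to the median of all rows, and without TMM, the difference was −0.21 for miR-181a-5p, −0.17 for miR-181b-5p and −0.08 for miR-181a-3p. It was larger for the miRNAs of the third locus, at −0.64 for miR-181c-5p, −0.50 for miR-181d and −1.11 for miR-181c-3p. These differences from the median depended on single libraries. That of miR-181a-5p ranged from −0.43 without Wt 2 to −0.085 without Wt 3. miR-181a-3p lay above the median without Wt 1 (0.016) and without Agt Tg 3 (0.020). Without Wt 2 the difference was −0.12 for miR-181c-5p, 0.055 for miR-181d and −0.49 for miR-181c-3p. In the ordering of all rows by fold change, 15 of 329 were as low as miR-181c-3p or lower, and 135 of 329 as low as miR-181a-3p or lower.

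Leaving out Wt 2 moved the members in opposite directions. The log2 fold change of miR-181a-5p became −0.61 ± 0.13, with an unadjusted p of 0.0038 and an adjusted p of 0.299 in limma (0.299 to 1.0 over its alternatives). It was then the 1 miR-181 row of 6 at an unadjusted p of at most 0.05, against 48 of 329 rows (14.6%). The log2 fold change of miR-181a-3p became −0.49, and that of miR-181b-5p was −0.40. In miR-181a-5p, miR-181b-5p and miR-181a-3p, 3 of the 6 miR-181 rows, all 3 Agt Tg libraries were below both remaining Wt libraries, as they were in 87 of 329 rows (26.4%). For miR-181c-5p the log2 fold change became −0.30, for miR-181d −0.12 and for miR-181c-3p −0.67, so that miR-181d no longer lay below the median of all rows, which was −0.18 without Wt 2. The differences of miR-181c-5p and miR-181d in the full set thus rested on 1 library for the larger part. miR-181a-3p also became −0.13 without Wt 1.

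**Figure D2:**
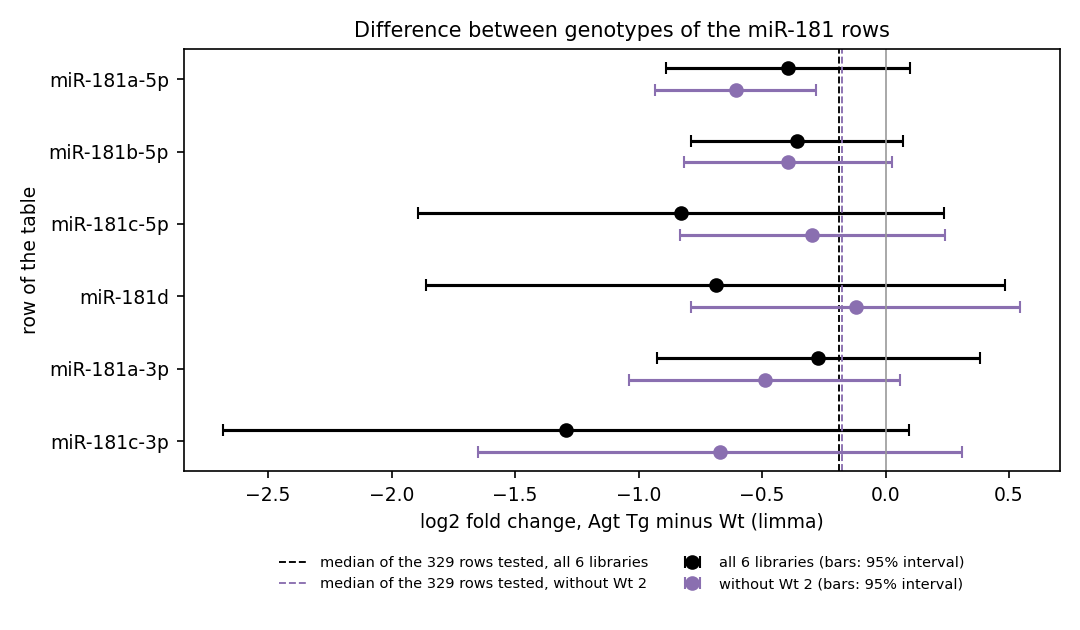
Log2 fold change of each miR-181 row, Agt Tg minus Wt, from limma (horizontal axis), for all 6 libraries in black and without Wt 2 in purple; bars are 95% intervals, the grey line is 0 and dashed lines mark the median of the 329 rows tested. Without Wt 2 miR-181a-5p moves from −0.40 to −0.61 and miR-181c-5p from −0.83 to −0.30.

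Ratios within a library do not depend on how libraries were scaled to each other. The arm ratio of miR-181a, as log2 of 5p over 3p, was 6.82, 6.94 and 7.02 in Wt and 6.43, 6.85 and 7.12 in Agt Tg, so the 5p arm was 86.5 to 139 times as abundant. For miR-181c the arm ratio was 4.89, 4.74 and 5.13 in Wt and 5.18, 5.12 and 5.84 in Agt Tg. It differed by 0.46 between genotypes, with Agt Tg higher, and the groups overlapped through Wt 3 (5.13) and Agt Tg 2 (5.12). The exact two-sided permutation p was 0.8 for miR-181a and 0.2 for miR-181c, and 3 libraries against 3 cannot give a p under 0.1. The difference between genotypes in the arm ratio of miR-181a was −0.12, with and without Wt 2, but −0.28 without Agt Tg 3 and 0.06 without Agt Tg 1, so its sign turned. For miR-181c it was 0.37 without Wt 2 and ranged from 0.23 without Agt Tg 3 to 0.59 without Agt Tg 2. Whether the human-named 3p rows have the mouse sequence was not checked, which also limits the size of these ratios. The 3p row of Mir181a-2 was at the floor, so no ratio was formed with it.

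Between members, the steadiest ratio was that of the neighbours miR-181c-5p and miR-181d. Its log2 values were 2.93, 2.83 and 2.94 in Wt and 2.68, 2.71 and 2.88 in Agt Tg, with an SD of 0.11 over the 6 libraries. It was lower by 0.14 on average in Agt Tg, with overlapping groups and an exact permutation p of 0.2. The ratio of miR-181a-5p to miR-181b-5p lay between 4.05 and 4.72 and differed by −0.04 between genotypes. The ratio of miR-181a-5p to miR-181c-5p was 5.14, 3.03 and 5.38 in Wt, with Wt 2 far below, and 4.55, 5.12 and 5.19 in Agt Tg. That of miR-181a-5p to miR-181d was likewise lowest in Wt 2, at 5.86 against 7.23 to 8.32 in the other libraries. For these last 3 ratios the exact permutation p was 0.9 each, among 6 ratios tested in all. Without Wt 2 the difference between genotypes turned from 0.43 to −0.31 for miR-181a-5p over miR-181c-5p and from 0.29 to −0.49 for miR-181a-5p over miR-181d, while it became −0.18 for miR-181c-5p over miR-181d. For miR-181a-5p over miR-181b-5p it became −0.21, and its sign turned without Wt 3 (0.13) and without Agt Tg 1 (0.05). With another library left out it was largest without Wt 3, at 0.87 for miR-181a-5p over miR-181c-5p and 0.75 for miR-181a-5p over miR-181d, the latter being 0.11 without Agt Tg 3.

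Over all 15 pairs of described rows, the 6 pairs that come from one kind of locus had the 6 smallest SDs of the log2 ratio, from 0.11 to 0.39. In that count the loci of miR-181a and miR-181b count as one kind, since their 5p rows cannot be assigned to either. The 9 pairs that join miR-181a or miR-181b to the miR-181c and miR-181d locus had SDs of 0.69 to 1.13. This separation rested on Wt 2, since without it the SDs were 0.12 to 0.37 within loci and 0.13 to 0.50 between them. The ratio of miR-181d to miR-181b-5p had an SD of 0.72, or 0.27 without Wt 2, and that of miR-181d to miR-181c-5p of 0.11 and 0.12. The part of a shared locus or of shared reads in these SDs was not tested.

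**Figure D3:**
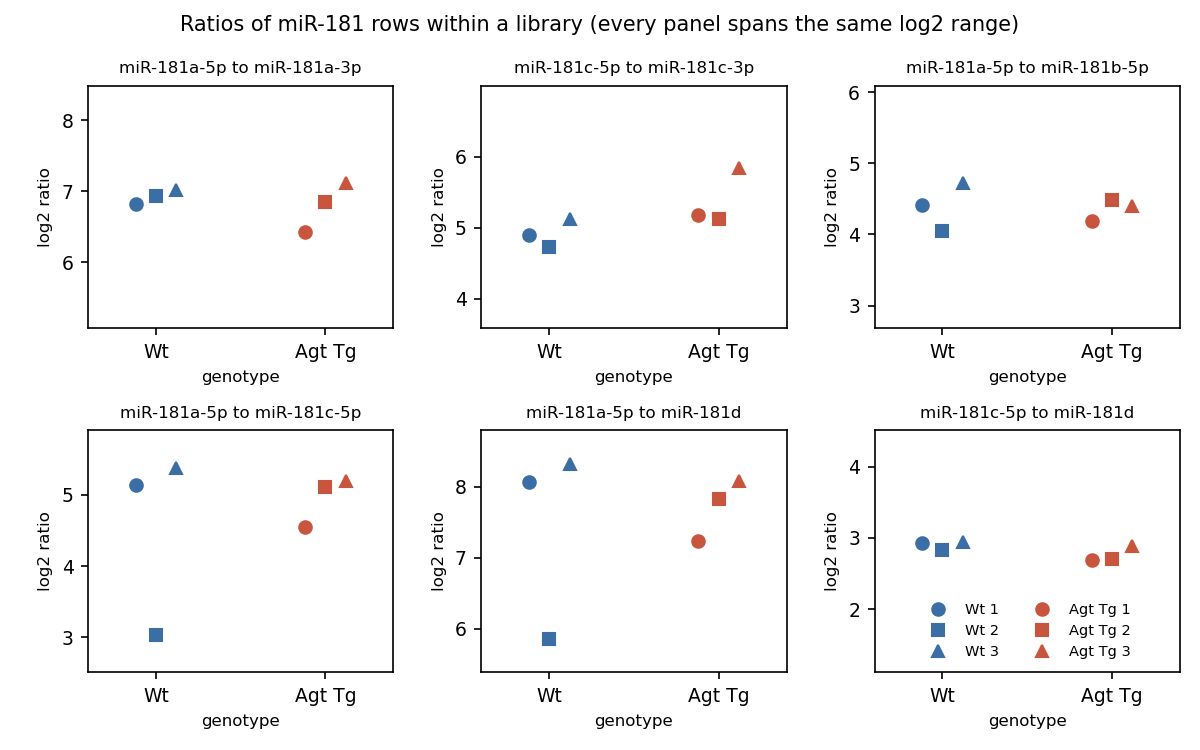
Log2 ratios of miR-181 rows within each library (vertical axis) by genotype, with Wt in blue, Agt Tg in red and replicates 1, 2 and 3 as circles, squares and triangles; each panel spans the same log2 range. The ratio of miR-181c-5p to miR-181d lies between 2.68 and 2.94 in the 6 libraries, and those of miR-181a-5p to miR-181c-5p and to miR-181d are lowest in Wt 2, at 3.03 and 5.86.

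Summed over the 6 rows, the family took up 199843, 146057 and 204188 reads per 10000000 in Wt 1, 2 and 3, and 131710, 129875 and 142589 in Agt Tg 1, 2 and 3. The groups did not overlap, but this rested on the miR-181c and miR-181d rows of Wt 2. Summed over the miR-181a and miR-181b rows alone, a choice made after seeing the data, Wt 2 stood at 128707 reads per 10000000, below Agt Tg 3 at 138448. As a share of the reads on listed miRNAs the family made up 3.69%, 2.65% and 3.57% in Wt and 2.47%, 2.51% and 2.60% in Agt Tg. The 95% Wilson intervals were 2.64% to 2.67% for Wt 2 and 2.59% to 2.62% for Agt Tg 3, and they cover counting error only, since reads without molecular identifiers are not independent molecules. The log2 total averaged 17.47 ± 0.27 (SD, n = 3) over the Wt libraries and 17.04 ± 0.07 (SD, n = 3) over the Agt Tg libraries. The difference of −0.43 became −0.59 without Wt 2. No test was made of this sum.

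miR-181a-5p alone made up 82.5% of the family's reads in Wt 2 and 89.6% to 93.2% in the other libraries. miR-181c-5p, miR-181d and miR-181c-3p together made up 11.9% in Wt 2 (95% Wilson interval 11.7% to 12.1%), 3.03% in Wt 1 and 2.59% in Wt 3. In Agt Tg 1, 2 and 3 they made up 4.52%, 3.13% and 2.90%.

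**Figure D4:**
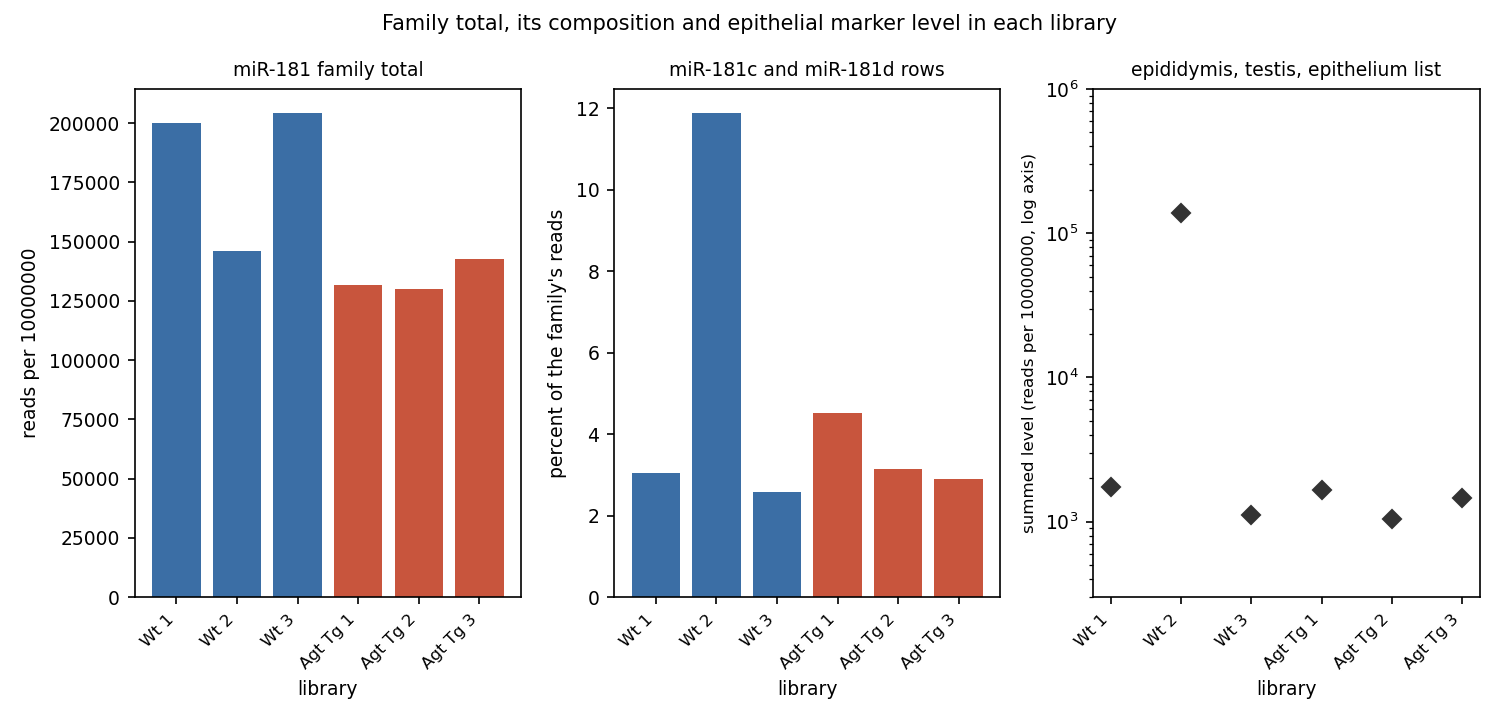
Left, the miR-181 family total in reads per 10000000; middle, the percent of the family's reads on miR-181c-5p, miR-181d and miR-181c-3p; right, the summed level of the epididymis, testis and epithelium list on a log axis, each by library (Wt blue and Agt Tg red in the bars, black diamonds on the right). Wt 2 has the highest share of the miR-181c and miR-181d rows, 11.9%, and the highest summed marker level, 138308 reads per 10000000.

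Leukocyte miRNAs are of interest beside a family known from lymphocytes, and their levels are given beside it. All 6 of the leukocyte list were in the table, with miR-150-5p, a lymphocyte miRNA, the most abundant. The human-named row of miR-155-5p, induced in activated immune cells, was at the floor in all 6 libraries, which does not show that the mouse strand was absent. The summed level of the list was 45041, 43542 and 45839 reads per 10000000 in Wt 1, 2 and 3, and 44217, 32835 and 29350 in Agt Tg 1, 2 and 3. Agt Tg 2 and Agt Tg 3 were the low libraries, and Agt Tg 1 was at the level of Wt. Of the 5 tested, 0 passed p and fold, against 16 of 329 rows (4.86%), and all 5 had a lower mean in Agt Tg, as had 67.5% of all rows. Their median log2 fold change was −0.56, against −0.19 over all rows. With each library left out in turn, an alternative chosen after seeing the data for all lists here, that median ranged from −0.94 without Agt Tg 1 to −0.30 without Agt Tg 3, where 4 of 5 were lower. miR-142-3p, found in all blood lineages, had a log2 fold change of −0.95 ± 0.43 (limma adjusted p = 0.531). It passed p and fold, as 1 of 5, at −1.33 without Agt Tg 1, against 35 of 329 rows (10.6%), and at −1.23 without Wt 3, against 22 of 329 (6.69%). The part of leukocyte content in the miR-181 values was not tested.

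The wider list of haematopoietic and lymphocyte miRNAs had 13 of 15 members tested, with miR-92a-3p the most abundant and miR-155-5p and miR-223-5p at the floor. Of the 13, 0 passed p and fold, against 16 of 329 rows (4.86%), 12 had a lower mean in Agt Tg, against 67.5% of all rows, and the median log2 fold change was −0.46, against −0.19. The list of miRNAs linked to adipose inflammation and angiotensin had 9 of 10 tested, led by miR-21-5p. Against the same shares, all 9 had a lower mean in Agt Tg, with a median of −0.60, and 0 passed. miR-132-3p, an angiotensin-responsive miRNA, had a log2 fold change of −0.22 ± 0.26 (limma adjusted p = 0.710), and miR-222-3p of −0.98 ± 0.69 (limma adjusted p = 0.587). With a library left out, that of miR-132-3p ranged from −0.35 without Wt 2 to −0.08 without Agt Tg 3, and that of miR-222-3p from −1.81 without Agt Tg 1 to −0.54 without Agt Tg 3. Without Agt Tg 1, 3 of 13 haematopoietic miRNAs (miR-142-3p, miR-342-5p and miR-18a-5p) and 3 of 9 inflammation miRNAs (miR-146b-5p, miR-221-3p and miR-222-3p) passed p and fold, against 35 of 329 rows (10.6%). Of these, miR-18a-5p was at the floor in Agt Tg 2 and Agt Tg 3 and at log2 values of 4.49 to 4.52 in Wt. Its fold change and its spread in that fit were thus set by the floor. The medians ranged from −0.86 without Agt Tg 1 to −0.30 without Wt 1 for the haematopoietic list, and from −0.86 without Agt Tg 1 to −0.38 without Agt Tg 3 for the inflammation list. All 6 leukocyte miRNAs are also on the haematopoietic list, which shares miR-146a-5p, miR-155-5p and miR-223-3p with the inflammation list, so the lists are not separate observations.

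Markers of other cell types were also read. Of the adipocyte list 5 of 6 were tested, led by miR-143-3p, with miR-193b-3p at the floor in all libraries; the summed level was 467931 to 510032 reads per 10000000 in Wt and 489742 to 662225 in Agt Tg. Both endothelial miRNAs, the arms of miR-126, were tested, with summed levels of 70782 to 87273 in Wt and 77583 to 118266 in Agt Tg. The 4 erythroid miRNAs, led by miR-486-5p, summed to 50938 in Wt 2 and to 93086 to 207942 in the other libraries. Of the muscle list miR-133a was tested and highest in Wt 2, at a log2 value of 10.72 against 8.92 to 9.35, with miR-133b and miR-206 at the floor in all 6 libraries. The liver marker miR-122-5p summed to 74.9 to 145 in the 6 libraries. None of the tested miRNAs of the adipocyte, endothelial, erythroid, muscle and liver lists passed p and fold, and of the epididymis, testis and epithelium list 1 of 7 did, against 16 of 329 rows (4.86%). This was miR-205-5p, lower in Agt Tg, at a log2 fold change of −2.17 ± 0.65 (limma adjusted p = 0.382). Without Wt 2, its highest library, it was −1.48 ± 0.45 (limma adjusted p = 0.299) and passed p and fold, as 1 of 7 against 23 of 329 rows (6.99%). Its log2 values in Agt Tg 1, 2 and 3 were 5.37, 4.73 and 4.01, the last near the floor. The median of that list was −2.39, and −0.18 without Wt 2, and without Wt 3 miR-200b-3p passed as well, 2 of 7 against 22 of 329 rows (6.69%). These medians are the values of miR-141-3p and, without Wt 2, of miR-200a-3p. Both rows were at the floor in Agt Tg 1 and Agt Tg 2, so the size of the medians depends on the floor.

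The rows most like miR-181a-5p over the 6 libraries, among the 323 tested outside the family, were picked by Pearson's r, so their r is high by choice and carries no test. They were miR-154-5p (r = 0.95, Spearman's rho = 0.94), miR-30c-5p (r = 0.93, rho = 0.89), miR-148b-3p (r = 0.92, rho = 0.66), miR-425-5p (r = 0.92, rho = 0.60) and miR-24-2-5p (r = 0.92, rho = 0.66). Without Wt 1 and Wt 3, the 2 libraries farthest from the median of miR-181a-5p, r was 0.68 for miR-154-5p and 0.63 for miR-30c-5p. It was −0.42 for miR-148b-3p, −0.89 for miR-425-5p and 0.24 for miR-24-2-5p, so these 3 likenesses rested on Wt 1 and Wt 3. miR-154-5p and miR-24-2-5p lay close to the floor throughout, at log2 values of 3.45 to 4.42 and 4.11 to 4.98, so their likenesses rest on few reads.

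At the other end stood miR-196a-5p (r = −0.95, rho = −0.94) and miR-196b-5p (r = −0.95, rho = −0.94), miRNAs of the Hox gene clusters, and miR-1180 (r = −0.94, rho = −0.43). miR-196a-5p was lowest in Wt 1 and Wt 3, where miR-181a-5p was highest, with log2 values from 3.61 in Wt 3, near the floor, to 7.99 in Agt Tg 1, and miR-196b-5p had values from 3.83 in Wt 3 to 7.88 in Agt Tg 1. Without those 2 libraries r was −0.79 for miR-196a-5p and −0.79 for miR-196b-5p over 4 libraries, and 0.62 for miR-1180, which was at the floor in Wt 1.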

How the data were processed

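Small RNA-seq values of epididymal WAT were used for 3 Wt and 3 Agt Tg libraries, grouped and numbered by the sample labels, which do not say that each library is a separate mouse; p-values measure the spread between libraries. The authors ran FastQC, mapped reads to miRBase precursors, selected mature miRNAs and used the Gunaratne pipeline for profiles; the methods also name Qseq version 12, and the submitters' notes mm10. The deposited log2 values stand for reads scaled to 10000000 per library, with a floor of 10. Library totals were inferred, as the smallest total found that made every value above the floor a whole number of reads within 0.02. They were 6387766 to 10562634 reads, and the read counts given here follow from them. All 1924 values above the floor were whole, as the search required, so this is no separate check.

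Rows above the floor in at least 3 of 6 libraries were tested in limma 3.58.1 (R 4.3.3) with a variance trend and genotype as the term, and p-values were adjusted over all 329. Since values were deposited on a log2 scale they were used as they stand, and log2(value + 1) served as an alternative. Ratios were tested by exact two-sided permutation (scipy 1.17.1), and figures were drawn with matplotlib 3.10.9. The fit was tested on simulated data. The miRNAs named are the miR-181 rows, their neighbours in mean level, the 5 most and 3 least correlated with miR-181a-5p, miR-191-5p, and the marker and comparison lists. The members and lists were chosen with earlier results of these data known. Array data were not used here.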

Additional observations from a re-analysis of the deposited data

How the results depend on the processing

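The log2 fold changes of the 6 miR-181 miRNAs kept their sign in each of 13 alternatives: log2(value + 1), TMM scaling, limma-voom with TMM, values relative to miR-191-5p, no filter, a mean of at least 10 reads per 1000000, the replicate block and each library left out. With no filter, the read filter or the replicate block the fold changes cannot move, so the kept sign says nothing there. With log2(value + 1) they hardly moved. With TMM scaling and with limma-voom they were smaller in size, at −0.27 and −0.27 for miR-181a-5p, −0.23 and −0.23 for miR-181b-5p, −0.70 and −0.70 for miR-181c-5p, −0.56 and −0.56 for miR-181d, −0.15 and −0.15 for miR-181a-3p and −1.17 and −1.15 for miR-181c-3p, against −0.40, −0.36, −0.83, −0.69, −0.27 and −1.29 in the same order without TMM. With each library left out they ranged from −0.61 to −0.28 for miR-181a-5p, −0.41 to −0.28 for miR-181b-5p, −1.14 to −0.30 for miR-181c-5p, −1.02 to −0.12 for miR-181d, −0.49 to −0.13 for miR-181a-3p and −1.71 to −0.67 for miR-181c-3p. The miRNAs at the threshold over the whole table numbered 16, against 3 with the filter of at least 10 reads per 1000000, which tests fewer miRNAs (208), 30 with no fold threshold and 12 to 35 with a library left out. Of the miR-181 miRNAs 0 to 2 were at the threshold with a library left out. The cause of these changes was not tested.

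With the replicate number as a block, 17 miRNAs and 1 miR-181 miRNA, miR-181c-3p, were at the threshold, with an unadjusted p of 0.0388 and an adjusted p of 0.573 in limma; over its alternatives the adjusted p of miR-181c-3p ranged from 0.304 to 1.0. Libraries with the same number had correlations of deviations of 0.22, −0.18 and −0.21, and not every library correlated best with its own number, so the numbers were not taken as pairs.

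Differences of the log2 ratios between genotypes ranged, with a library left out, from −0.28 to 0.061 for miR-181a-5p to miR-181a-3p, −0.21 to 0.13 for miR-181a-5p to miR-181b-5p, −0.31 to 0.87 for miR-181a-5p to miR-181c-5p, −0.49 to 0.75 for miR-181a-5p to miR-181d, 0.23 to 0.59 for miR-181c-5p to miR-181c-3p and −0.20 to −0.10 for miR-181c-5p to miR-181d. The family total on the log2 scale was −0.43, −0.39 with the miR-181a and miR-181b miRNAs alone (added after seeing the data), and −0.59 to −0.34 with a library left out. Depth limits miR-181c-3p most, with 63 reads in Agt Tg 2.

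For the marker and comparison lists, leaving out each library in turn was added after seeing the data. At the threshold there were then 0 to 1 of 5 tested on the leukocyte list, 0 to 3 of 13 on the haematopoietic list, 0 to 3 of 9 on the inflammation list and 1 to 2 of 7 on the epididymis, testis and epithelium list, and 0 throughout on the others, against 12 to 35 of all 329. Both counts of 3 arose without Agt Tg 1, where 35 of 329 (10.6%) were at the threshold. The haematopoietic count includes miR-18a-5p, which was at the floor in Agt Tg 2 and Agt Tg 3. The median log2 fold change of a list ranged from −0.94 to −0.30 for leukocyte, −0.86 to −0.30 for haematopoietic, −0.86 to −0.38 for inflammation, −3.59 to −0.18 for epididymis, testis and epithelium, −0.15 to 0.21 for adipocyte, 0.07 to 0.35 for endothelial, 0.10 to 0.55 for erythroid, −0.78 to 0.012 for muscle and 0.14 to 0.61 for liver. The sign turned without Wt 2 for adipocyte and muscle, and without Agt Tg 2 (−0.05) and Agt Tg 3 (−0.04) for adipocyte.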
